A study of Drosophila melanogaster with 6 samples.

Results

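Aminoacyl-tRNA synthetases are the enzymes that join each amino acid to its tRNA, the step that makes the substrate of translation. They were examined at the RNA level in neuroblast (NB) tumors of the *Drosophila* ventral nerve cord (VNC, the posterior part of the fly central nervous system). The genes were taken by their symbols in the deposited count table, which are an amino acid followed by RS, with the suffix -m for enzymes that work in mitochondria. Of 17494 genes in the table, 33 matched. The 18 without the suffix are called cytosolic here and the 15 with it mitochondrial. The rule uses symbols and no expression value, although it was set with earlier results of these data known. Among them were 14 amino acids with a gene of either class, where *GluProRS*, whose protein carries both the glutamyl and the prolyl enzyme, was set against *GluRS-m* and against *ProRS-m*. Another 5 cytosolic genes, those for Gln, Gly, His, Lys and Thr, had no -m counterpart by symbol. Whether any of these 5 also supplies mitochondria was not examined, and they are counted as cytosolic in sums and medians. The 2 subunit genes of the cytosolic phenylalanine enzyme are named differently and are described with the partner proteins, so that *PheRS-m* stood alone.

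The nuclear genome of an animal encodes a set of synthetases for cytosolic translation and another for translation inside mitochondria, where a small number of proteins of the respiratory chain are made. Some genes supply both compartments, as the human genes for the glycine and lysine enzymes do. In mammals, the enzymes for Arg, Asp, Gln, Glu-Pro, Ile, Leu, Lys and Met are bound together in a multisynthetase complex by scaffold proteins called AIMPs. Dividing cells need much protein synthesis for growth, and NBs are the dividing stem cells of the fly central nervous system.

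The series held 2 RNA-seq libraries for each of 3 conditions, all from VNCs of adults of about 6 days by the labels, while the study's methods give an older age for the tumors. In *poxn > prosRNAi, SypRNAi* tumors, poxn-Gal4 drove UAS-prosRNAi and UAS-SypRNAi together with UAS-dicer2 and a UAS-mCherry.NLS reporter, and in *poxn > prosRNAi* tumors the same driver, dicer2 and reporter were present with UAS-prosRNAi alone. Here *pros* (*prospero*) encodes a transcription factor that makes NB daughter cells differentiate, and *Syp* (*Syncrip*) an RNA-binding protein of the NB temporal series. The wild-type (WT) VNCs contained no NB, and whether they carried the driver, dicer2 or the reporter is not given in the sources used here. The tumor-bearing VNCs were dissected with the normal tissue around the tumor, from pooled females and males of several crosses, and the libraries of each tumor genotype are called technical replicates in the study's methods. How the WT VNCs were pooled is not given in the sources used here. The p-values below measure only the spread between these libraries.

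Library totals ranged from 86098417 to 128107088 counts, and the 33 genes took 0.112% to 0.278% of them. The lowest count of any of the 33 genes in a library was 695 and the highest 46186, so all of them passed the filter on low counts in each comparison. The targeted genes are given first. Their RNA was also present in WT VNCs, which held no NB. Levels in whole VNCs therefore do not measure the knockdown within tumor NBs. *pros* had 1045 and 1254 CPM (reads of a gene relative to all counted reads of its library, scaled by TMM) in *poxn > prosRNAi, SypRNAi* tumors, 736 and 808 CPM in *poxn > prosRNAi* tumors and 2505 and 2335 CPM in WT. *Syp* had 422 and 459 CPM in *poxn > prosRNAi, SypRNAi* tumors, 2066 and 1762 CPM in *poxn > prosRNAi* tumors and 699 and 689 CPM in WT. The 6 NB markers listed (*mira*, *dpn*, *grh*, *wor*, *ase* and *insc*) summed to 1760 to 1919 CPM in *poxn > prosRNAi, SypRNAi* tumors, 2267 to 2424 CPM in *poxn > prosRNAi* tumors and 11.7 to 12.6 CPM in WT. Reads were counted without regard to strand and a read on overlapping genes was given to each, which matters most for *AspRS*, with 73.5% of its exon length shared with *Nmda1*, *asRNA:CR43468* and *asRNA:CR45141*. Lower shares were found for *GluProRS* (16.6%), *CysRS-m* (14.3%), *SerRS-m* (13.9%) and *ArgRS-m* (11.8%), and the other genes shared less than 10% of their exon length. Values of these 5 genes are therefore less certain than those of the others.

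Transcripts of the cytosolic enzymes were the more abundant class in all 6 libraries, and by a wider margin in the tumors. The 18 cytosolic genes summed to 2307 and 2451 CPM in *poxn > prosRNAi, SypRNAi* tumors, to 2485 and 2277 CPM in *poxn > prosRNAi* tumors and to 721 and 741 CPM in WT. For the 15 mitochondrial genes the sums were 388 and 400 CPM in *poxn > prosRNAi, SypRNAi* tumors, 434 and 430 CPM in *poxn > prosRNAi* tumors and 338 and 341 CPM in WT. The cytosolic sum was thus 5.94 and 6.13 times the mitochondrial sum in *poxn > prosRNAi, SypRNAi* tumors, 5.73 and 5.29 times in *poxn > prosRNAi* tumors and 2.13 and 2.18 times in WT, a ratio within each library that no scaling changes. In bulk tissue, fewer cells of a type and less RNA per cell cannot be told apart.

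Levels of different genes were compared per exon length, as CPM per kb. The median cytosolic gene had 36.5 and 40.4 CPM per kb in *poxn > prosRNAi, SypRNAi* tumors, 42.2 and 38.5 CPM per kb in *poxn > prosRNAi* tumors and 13.4 and 13.7 CPM per kb in WT. The median mitochondrial gene had 8.34 and 7.98 CPM per kb in *poxn > prosRNAi, SypRNAi* tumors, 9.27 and 9.48 CPM per kb in *poxn > prosRNAi* tumors and 7.39 and 7.72 CPM per kb in WT. The order of the genes also differed between the tumors and WT. *IleRS*, which charges isoleucine tRNA, had the highest mean level per length in *poxn > prosRNAi, SypRNAi* tumors (92.3 CPM per kb) and in *poxn > prosRNAi* tumors (86.8 CPM per kb), whereas in WT it was *ThrRS*, the threonine enzyme, with 29.5 CPM per kb. *AspRS* came close behind *IleRS* in the tumors, at 86.2 CPM per kb in *poxn > prosRNAi, SypRNAi* tumors and 86.0 CPM per kb in *poxn > prosRNAi* tumors. *CysRS*, the cysteine enzyme, was the lowest of the cytosolic genes in each condition, with a mean of 14.9 CPM per kb in *poxn > prosRNAi, SypRNAi* tumors, 10.4 in *poxn > prosRNAi* tumors and 6.13 in WT.

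Among the mitochondrial genes *MetRS-m*, for methionine, was the lowest throughout, with 3.44 CPM per kb in *poxn > prosRNAi, SypRNAi* tumors, 3.82 in *poxn > prosRNAi* tumors and 3.96 in WT. The highest was *AspRS-m* in the tumors, with 25.3 CPM per kb in *poxn > prosRNAi, SypRNAi* tumors and 29.6 CPM per kb in *poxn > prosRNAi* tumors, and *PheRS-m* in WT, with 17.8 CPM per kb. By mean level per length, 17 of the 18 cytosolic genes stood above every mitochondrial gene in *poxn > prosRNAi, SypRNAi* tumors, 14 in *poxn > prosRNAi* tumors and 5 in WT. Replicates were close: the median ratio of SD to mean over the 33 genes was 4.66% in *poxn > prosRNAi, SypRNAi* tumors, 4.58% in *poxn > prosRNAi* tumors and 1.88% in WT. The largest was 19.5%, for *PheRS-m* in *poxn > prosRNAi, SypRNAi* tumors.

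**Figure D1:**
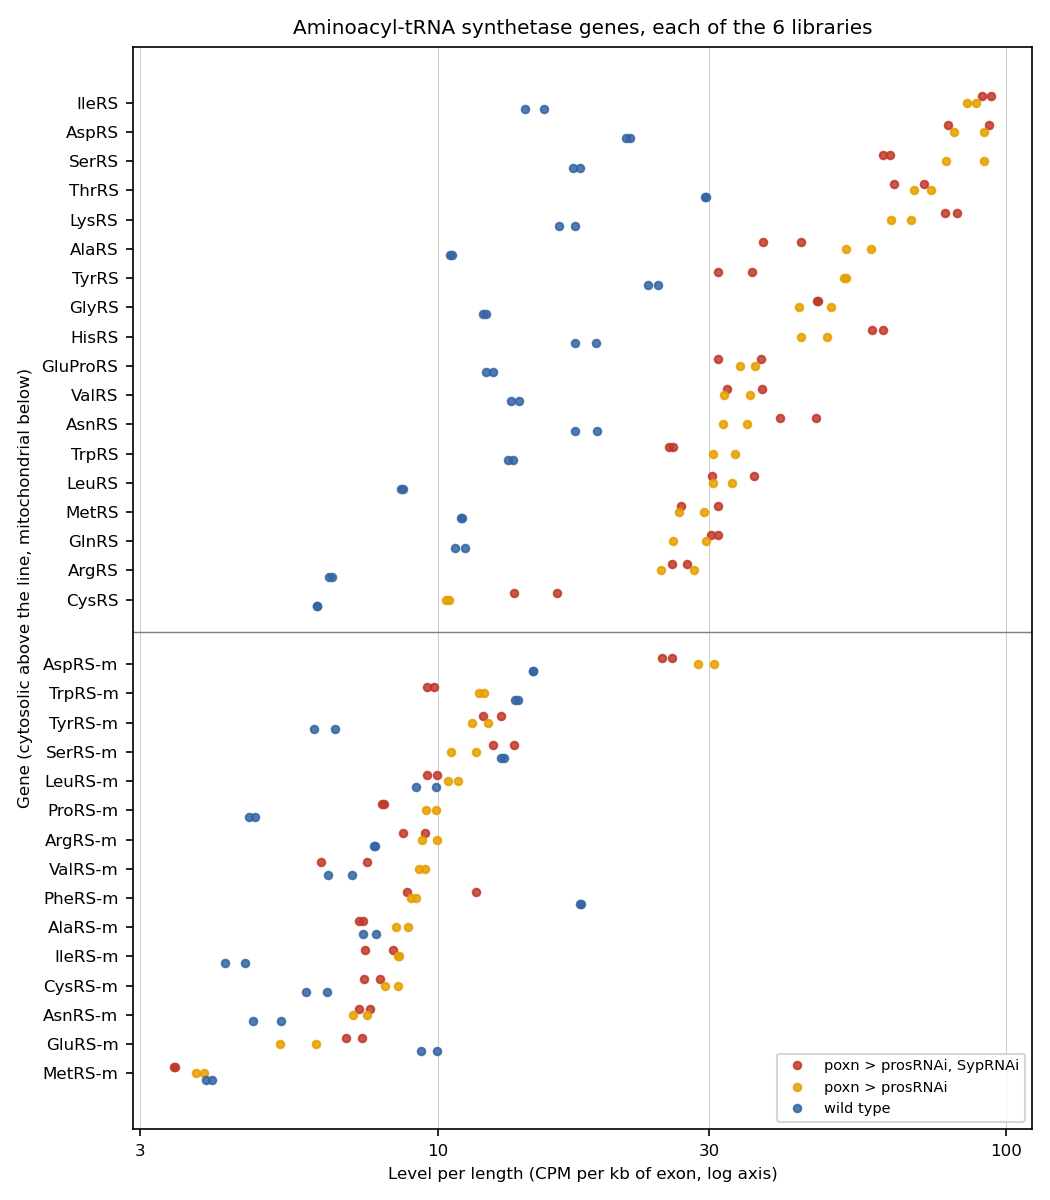
Level of each synthetase gene per exon length (x axis, CPM per kb, log scale) in each of the 6 libraries, with a point for every library and cytosolic genes above the line, mitochondrial genes below it. The tumor points of all 18 cytosolic genes lie to the right of the WT points, while those of the mitochondrial genes lie on either side, with *PheRS-m*, *GluRS-m*, *TrpRS-m* and *MetRS-m* to the left.

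The comparison of *poxn > prosRNAi* tumors with WT asks how a VNC that carries dividing tumor NBs differs from one with none. All 18 cytosolic genes were higher in the tumors at an adjusted p under 0.05 (edgeR's quasi-likelihood test, with p-values corrected by Benjamini-Hochberg over 14162 genes and given as edgeR adjusted p from here on), and in each of them both tumor libraries lay above both WT libraries. Of the 15 mitochondrial genes, 9 were higher, 4 were lower and 2 were not called. These counts stand against a background in which 82.6% of all genes tested were called, 41.9% higher and 40.7% lower. The libraries were also apart in the mitochondrial genes, with both tumor libraries above both WT libraries in 10 and below them in 5. The share of all genes with libraries so separated was not computed. The median log2 fold change was 1.43 over the cytosolic genes (2.70-fold), 0.33 over the mitochondrial genes and 0.0084 over all genes tested. Cytosolic values ranged from 0.77 (*CysRS*) to 2.56 (*IleRS*), and mitochondrial values from -0.97 (*PheRS-m*) to 1.05 (*ProRS-m*), and 16 of the cytosolic genes had a larger value than any mitochondrial gene.

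The 6 genes that changed most were all cytosolic. *IleRS* (FBgn0027086, chromosome arm 3L, 22288665 to 22292810 in dmel6) had 345 and 332 CPM in *poxn > prosRNAi* tumors, against 55.4 and 59.9 CPM in WT. Its log2 fold change was 2.56 ± 0.0732 (SE, n = 2 each; edgeR adjusted p = 5.91e-06). *AlaRS* (FBgn0027094, 2L, 8378262 to 8381764), the alanine enzyme, had 190 and 172 CPM in *poxn > prosRNAi* tumors, against 34.9 and 34.5 CPM in WT. For *AlaRS* the log2 fold change was 2.39 ± 0.0759 (edgeR adjusted p = 6.79e-06), and both tumor libraries were about 5 times as high as WT (5.23-fold). *SerRS* (FBgn0031497, 2L, 3035493 to 3037403), for serine, had 175 and 150 CPM in *poxn > prosRNAi* tumors, against 33.1 and 34.0 CPM in WT, with a log2 fold change of 2.28 ± 0.0936 (edgeR adjusted p = 1.07e-05).

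*ArgRS*, *AspRS* and *LysRS*, whose mammalian counterparts sit in the multisynthetase complex, followed. *ArgRS* (FBgn0027093, X, 15841769 to 15844145) had 60.2 and 52.7 CPM in *poxn > prosRNAi* tumors, against 13.8 and 13.9 CPM in WT, a log2 fold change of 2.03 ± 0.0859 (edgeR adjusted p = 1.14e-05). *LysRS* (FBgn0027084, X, 9606363 to 9608884) had 154 and 142 CPM in *poxn > prosRNAi* tumors, against 37.0 and 39.4 CPM in WT, a log2 fold change of 1.96 ± 0.0757 (edgeR adjusted p = 9.31e-06). *AspRS*, which shares most of its exon length with other genes, had 207 and 183 CPM in *poxn > prosRNAi* tumors, against 48.5 and 49.5 CPM in WT, a log2 fold change of 2.00 ± 0.0817 (edgeR adjusted p = 1.06e-05). At the low end stood *CysRS* and *AsnRS*, the enzymes for cysteine and asparagine. *CysRS* had 25.7 and 25.4 CPM in *poxn > prosRNAi* tumors, against 15.0 and 15.0 CPM in WT (log2 fold change 0.77), and *AsnRS* had 83.0 and 75.5 CPM in *poxn > prosRNAi* tumors, against 41.5 and 45.3 CPM in WT (0.87).

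The 8 cytosolic genes whose products belong to the mammalian complex had log2 fold changes between 1.35 and 2.56, with a median of 1.92, and the 10 other cytosolic genes between 0.77 and 2.39, with a median of 1.29. This grouping was made after the values were seen and was not tested. Within each subset every gene was higher in *poxn > prosRNAi* tumors, and the ranges overlapped, since *AlaRS* and *SerRS* lie outside the complex and were among the 3 that changed most.

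The genes of mitochondrial enzymes went in either direction in *poxn > prosRNAi* tumors. *ProRS-m*, *AspRS-m*, *IleRS-m* and *TyrRS-m* had the largest increases, with log2 fold changes of 1.05, 1.02, 0.96 and 0.91. *AspRS-m* had 135 and 127 CPM in *poxn > prosRNAi* tumors, against 64.9 and 65.0 CPM in WT. *PheRS-m* and *GluRS-m* were lower by the widest margin. *PheRS-m* (FBgn0275436), which charges mitochondrial phenylalanine tRNA, had 13.7 and 14.0 CPM in *poxn > prosRNAi* tumors, against 27.1 and 27.3 CPM in WT, a log2 fold change of -0.97 ± 0.0608 (edgeR adjusted p = 3.94e-05). *GluRS-m* (FBgn0036629, 3L, 16415292 to 16417177) had 10.4 and 8.96 CPM in *poxn > prosRNAi* tumors, against 15.9 and 16.9 CPM in WT, a log2 fold change of -0.76 ± 0.101 (edgeR adjusted p = 0.000896). The other 2 lower genes, *SerRS-m* and *TrpRS-m*, had small differences, of -0.22 and -0.20. *LeuRS-m* and *MetRS-m* were not called, at 0.16 and -0.049.

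A few of the small mitochondrial calls depended on single libraries. *AlaRS-m* (log2 fold change 0.19), *SerRS-m* and *TrpRS-m* were no longer called when either WT library was left out, where the edgeR adjusted p was 0.0932 to 0.222 for *AlaRS-m*, 0.12 to 0.123 for *SerRS-m* and 0.106 to 0.11 for *TrpRS-m*. *SerRS-m* (edgeR adjusted p = 0.14) and *TrpRS-m* (edgeR adjusted p = 0.0814) were also lost without *poxn > prosRNAi* replicate 1, and *AlaRS-m* (edgeR adjusted p = 0.083) without replicate 2. Scaling by library totals alone moved the median of all genes by -0.28 in this comparison. With that scaling the cytosolic median was 1.15 with all 18 genes still higher, the mitochondrial median was 0.042, 4 mitochondrial genes were higher and 5 lower, and *AlaRS-m* turned to -0.093. Relative to the median of all genes, the cytosolic genes stood 1.42 higher and the mitochondrial genes 0.32 higher on the log2 scale.

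The same comparison for *poxn > prosRNAi, SypRNAi* tumors, which uses the same WT libraries and so is not independent of the first, also had all 18 cytosolic genes higher, each with both tumor libraries above both WT libraries. Of the mitochondrial genes 7 were higher, 4 lower and 4 not called. The background was 76.5% of 14289 genes called, 39.8% higher and 36.7% lower. In 7 mitochondrial genes both tumor libraries lay above both WT libraries, and in 5 both lay below. The share of all genes with libraries so separated was not computed for this comparison either. The median log2 fold change was 1.59 over the cytosolic genes (3.01-fold), 0.029 over the mitochondrial genes, a value that turned to -0.11 under library totals alone, and 0.043 over all genes tested. Cytosolic values ranged from 0.47 (*TyrRS*) to 2.64 (*IleRS*), and mitochondrial values from -0.80 (*PheRS-m*) to 0.97 (*TyrRS-m*).

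*IleRS* again changed most, with 353 and 367 CPM in *poxn > prosRNAi, SypRNAi* tumors, against 55.4 and 59.9 CPM in WT, a log2 fold change of 2.64 ± 0.0798 (edgeR adjusted p = 5.83e-05). *LysRS* had 177 and 186 CPM in *poxn > prosRNAi, SypRNAi* tumors, against 37.0 and 39.4 CPM in WT, a log2 fold change of 2.24 ± 0.0741 (edgeR adjusted p = 6.29e-05). *ArgRS* had 55.2 and 58.7 CPM in *poxn > prosRNAi, SypRNAi* tumors, against 13.8 and 13.9 CPM in WT, a log2 fold change of 2.03 ± 0.0715 (edgeR adjusted p = 6.74e-05). These 3 genes encode enzymes of the complex named above, as does *AspRS*, the next in order.

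*AspRS* had 211 and 179 CPM in *poxn > prosRNAi, SypRNAi* tumors, against 48.5 and 49.5 CPM in WT, a log2 fold change of 1.99 ± 0.093 (edgeR adjusted p = 0.00011). *GlyRS* (FBgn0027088, 3L, 15095142 to 15097686), the glycine enzyme, had 119 and 118 CPM in *poxn > prosRNAi, SypRNAi* tumors, against 30.6 and 31.0 CPM in WT, a log2 fold change of 1.94 ± 0.0582 (edgeR adjusted p = 5.82e-05). *AlaRS* had 123 and 143 CPM in *poxn > prosRNAi, SypRNAi* tumors, against 34.9 and 34.5 CPM in WT, a log2 fold change of 1.93 ± 0.106 (edgeR adjusted p = 0.000153). In all 6 of these genes the lower tumor library stood above the higher WT library by more than the distance between the replicates of either condition.

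*TyrRS*, which charges tyrosine tRNA, was the cytosolic gene that differed least from WT in *poxn > prosRNAi, SypRNAi* tumors. It had 63.2 and 55.2 CPM in *poxn > prosRNAi, SypRNAi* tumors, against 41.5 and 43.3 CPM in WT, a log2 fold change of 0.47 ± 0.0796 (edgeR adjusted p = 0.00493), which was no longer called with library totals alone (0.34, edgeR adjusted p = 0.0504). Of the mitochondrial genes, *PheRS-m*, *TrpRS-m*, *GluRS-m* and *MetRS-m* were lower, by log2 values of -0.80, -0.51, -0.44 and -0.21. *TrpRS-m* had 23.7 and 24.4 CPM in *poxn > prosRNAi, SypRNAi* tumors, against 34.3 and 33.9 CPM in WT. Calls of *ArgRS-m* (0.23), *CysRS-m* (0.32), *GluRS-m* and *MetRS-m* were lost when single libraries were left out. *ArgRS-m* was lost without WT replicate 1, WT replicate 2 or *poxn > prosRNAi, SypRNAi* replicate 2 (edgeR adjusted p = 0.0992, 0.123 and 0.106), and *CysRS-m* without WT replicate 1 or *poxn > prosRNAi, SypRNAi* replicate 2 (edgeR adjusted p = 0.0919 and 0.0665). *GluRS-m* was lost without WT replicate 2 (edgeR adjusted p = 0.0536), and *MetRS-m* without WT replicate 1, WT replicate 2 or *poxn > prosRNAi, SypRNAi* replicate 1 (edgeR adjusted p = 0.175, 0.198 and 0.0772). The mitochondrial median near 0 was between 0.088 and 0.13 in the 4 fits that each left out a library.

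**Figure D2:**
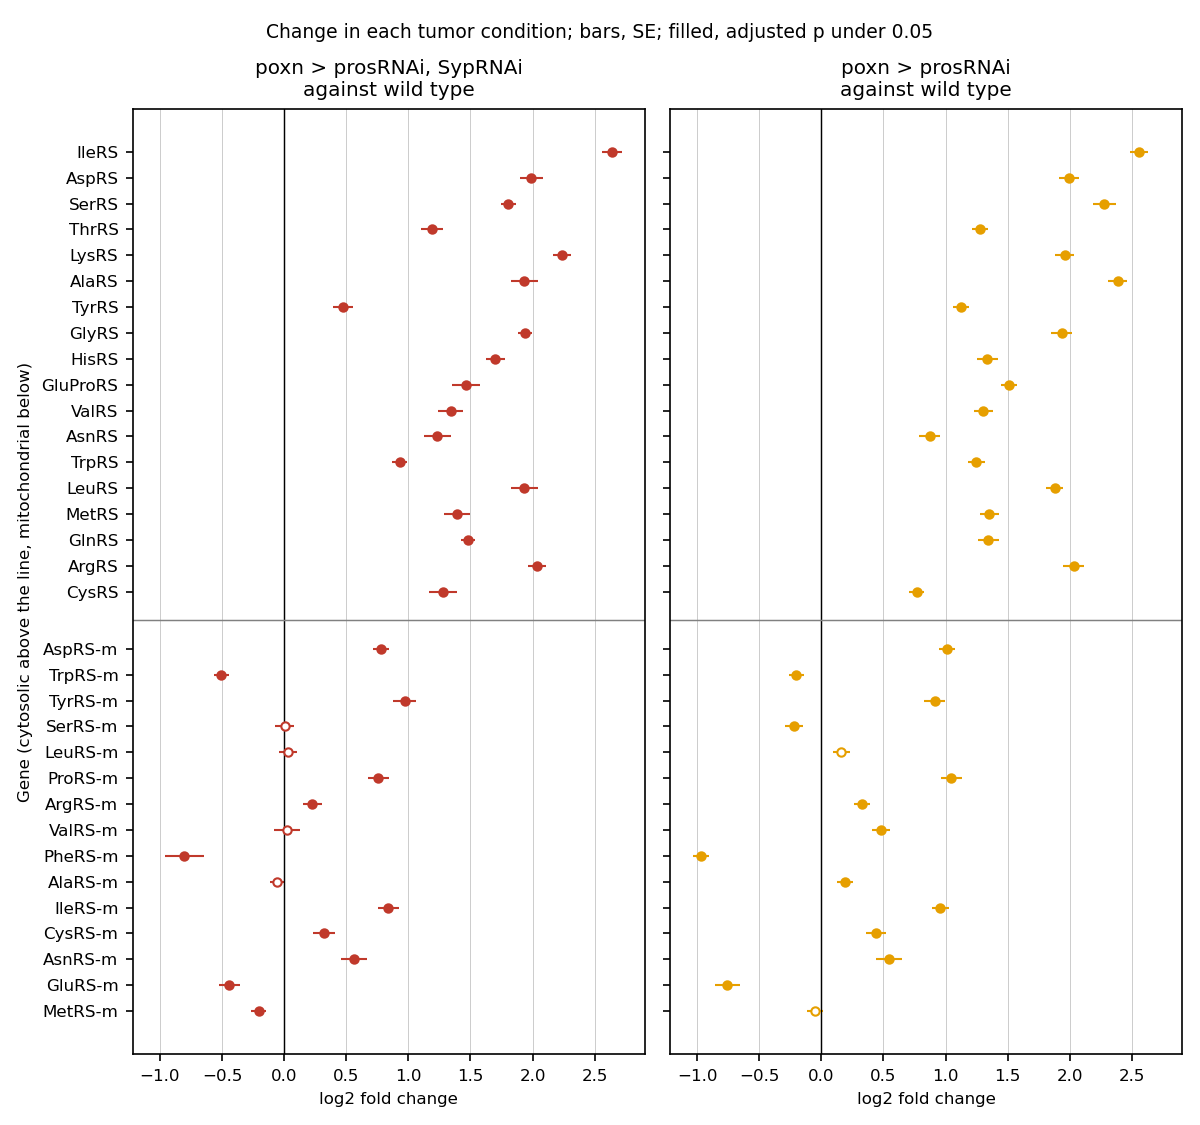
Log2 fold change of each gene (x axis) against WT in *poxn > prosRNAi, SypRNAi* tumors (left) and *poxn > prosRNAi* tumors (right), with SE bars derived from the edgeR fit and filled points for an adjusted p under 0.05. All 18 cytosolic points lie to the right of 0 in each panel, from 0.47 to 2.64 on the left and from 0.77 to 2.56 on the right, while the 15 mitochondrial points spread to either side of 0.

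Markers of other cells differed along with these levels. The 8 neuron markers listed summed to 1613 to 2246 CPM in *poxn > prosRNAi, SypRNAi* tumors, 1061 to 1253 CPM in *poxn > prosRNAi* tumors and 6483 to 6549 CPM in WT, and all 8 were lower in either tumor type. The 7 fat body markers summed to 245 to 332 CPM in *poxn > prosRNAi, SypRNAi* tumors, 990 to 1564 CPM in *poxn > prosRNAi* tumors and 5696 to 6606 CPM in WT, although *Fbp1* (5.73 on the log2 scale) and *Fbp2* (4.58) were higher than WT in *poxn > prosRNAi, SypRNAi* tumors. Of the muscle markers against WT, 8 of 12 were higher and 1 lower in *poxn > prosRNAi, SypRNAi* tumors (median 0.94), and 11 of 12 were lower in *poxn > prosRNAi* tumors (median -2.34). The 6 glia markers summed to 982 to 1197 CPM in *poxn > prosRNAi, SypRNAi* tumors, 663 to 716 CPM in *poxn > prosRNAi* tumors and 2498 to 2502 CPM in WT. Against WT all 6 were lower in *poxn > prosRNAi* tumors. In *poxn > prosRNAi, SypRNAi* tumors 5 were lower and *Eaat1* was higher (0.54 on the log2 scale). The 3 hemocyte markers summed to no more than 14.2 CPM in a tumor library, against 90.0 to 124 CPM in WT. Of all genes tested 39.8% were higher and 36.7% lower than WT in *poxn > prosRNAi, SypRNAi* tumors, and 41.9% and 40.7% in *poxn > prosRNAi* tumors. No marker gene of these lists was at 0 counts in a library. The part of this shift in tissue makeup in the differences of the synthetase genes was not tested.

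Amino acids with a gene of either class allow a ratio to be taken within each library, which does not depend on how libraries are scaled. In *poxn > prosRNAi* tumors the cytosolic to mitochondrial ratio of levels per length was above WT in both libraries for all 14 amino acids. In *poxn > prosRNAi, SypRNAi* tumors it was above WT for 13, and below WT for Tyr. The median ratio was 4.08 and 4.60 in *poxn > prosRNAi, SypRNAi* tumors, 4.05 and 3.90 in *poxn > prosRNAi* tumors and 1.45 and 1.43 in WT. The cytosolic gene was the higher one per length for 14 of 14 amino acids in all 4 tumor libraries, and for 11 and 10 of 14 in the WT libraries. In WT the ratio was below 1 in both libraries for Arg, Leu and Trp.

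Serine, glutamate and alanine had the widest separation between *poxn > prosRNAi* tumors and WT. The ratio of *SerRS* to *SerRS-m* was 8.65 and 6.72 in *poxn > prosRNAi* tumors, against 1.33 and 1.38 in WT, a difference of 2.50 between the log2 fold changes of the pair. The ratio of *GluProRS* to *GluRS-m* was 5.92 and 6.45 in *poxn > prosRNAi* tumors, against 1.34 and 1.22 in WT, and that of *AlaRS* to *AlaRS-m* was 6.84 and 5.91, against 1.44 and 1.35. At the other end the pairs for Tyr, Asn and Cys differed by 0.21, 0.33 and 0.33. The median difference over the 14 pairs was 1.42 for *poxn > prosRNAi* tumors against WT and 1.52 for *poxn > prosRNAi, SypRNAi* tumors against WT. Over these pairs *GluProRS* entered in 2, so that the pairs are not independent.

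**Figure D3:**
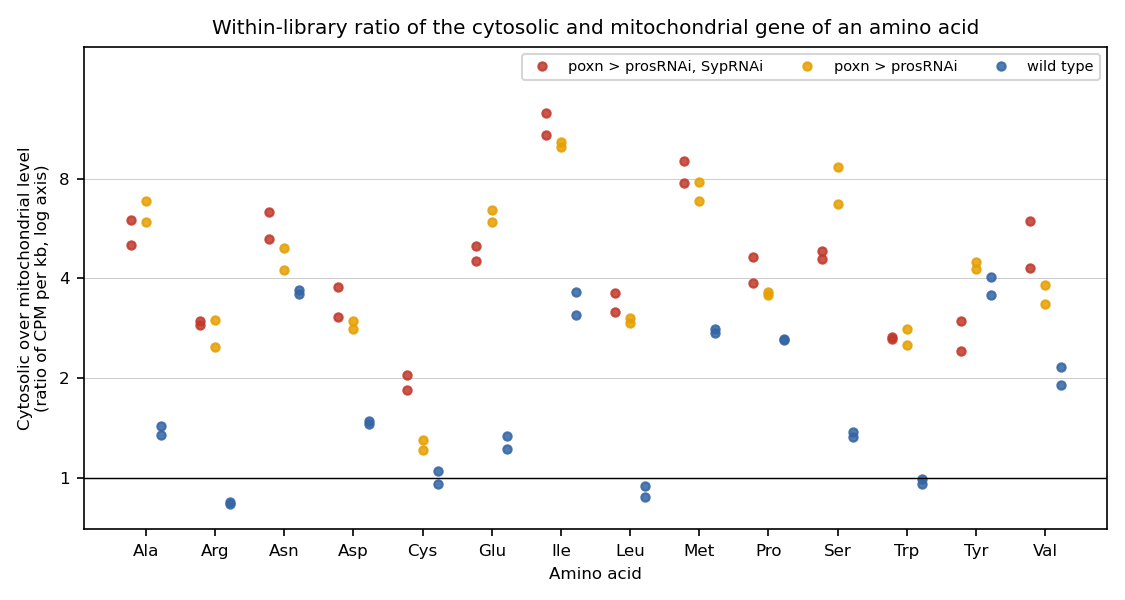
Ratio of the cytosolic to the mitochondrial level per length (y axis, log scale) for the 14 amino acids, with a point for each library of *poxn > prosRNAi, SypRNAi* tumors, *poxn > prosRNAi* tumors and WT, in that order from left to right. The tumor points lie above the WT points for every amino acid except Tyr in *poxn > prosRNAi, SypRNAi* tumors, and Ile reaches 12.6.

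The comparison of *poxn > prosRNAi, SypRNAi* with *poxn > prosRNAi* tumors asks what adding the *Syp* knockdown changes in a tumor. *pros* RNA was also higher in *poxn > prosRNAi, SypRNAi* tumors (log2 fold change 0.58, edgeR adjusted p = 0.0274), and these carry a further UAS transgene. Effects of these differences cannot be told apart from those of losing *Syp*. The comparison shares its libraries with those above. Differences here were small and went in either direction. Among the cytosolic genes, *CysRS*, *HisRS* and *LysRS* were higher, *TyrRS*, *SerRS*, *AlaRS* and *TrpRS* were lower, and 11 were not called. Of the mitochondrial genes, *ValRS-m* and *TrpRS-m* were lower, 13 were not called, and 0 were higher by edgeR's quasi-likelihood test, with 0 by DESeq2 and 2 at an unadjusted p under 0.05. Of 13703 genes tested 23.3% were called, 10.9% higher and 12.4% lower, against 7 of the 18 cytosolic and 2 of the 15 mitochondrial genes. The median log2 fold change was 0.033 over the cytosolic genes, -0.11 over the mitochondrial genes, a value that turned to 0.021 under library totals alone, and 0.016 over all genes tested.

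*TyrRS* (FBgn0027080, 3L, 16417349 to 16419302) differed most. It had 63.2 and 55.2 CPM in *poxn > prosRNAi, SypRNAi* tumors, against 92.6 and 91.7 CPM in *poxn > prosRNAi* tumors, a log2 fold change of -0.64 ± 0.0867 (edgeR adjusted p = 0.0137). *TyrRS-m* had 18.5 and 19.9 CPM in *poxn > prosRNAi, SypRNAi* tumors, against 18.9 and 17.7 CPM in *poxn > prosRNAi* tumors, with overlapping libraries and a log2 fold change of 0.069 (edgeR adjusted p = 0.562). The ratio of the pair was thus 2.97 and 2.42 in *poxn > prosRNAi, SypRNAi* tumors, against 4.27 and 4.50 in *poxn > prosRNAi* tumors, with 3.55 and 4.03 in WT.

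*CysRS* (FBgn0027091, 2R) went the other way. It had 33.5 and 39.8 CPM in *poxn > prosRNAi, SypRNAi* tumors, against 25.7 and 25.4 CPM in *poxn > prosRNAi* tumors, a log2 fold change of 0.52 ± 0.1 (edgeR adjusted p = 0.0271). *CysRS-m* had 15.6 and 16.7 CPM in *poxn > prosRNAi, SypRNAi* tumors, against 17.1 and 17.9 CPM in *poxn > prosRNAi* tumors (log2 fold change -0.11, edgeR adjusted p = 0.352). The cytosolic to mitochondrial ratio for cysteine was 1.84 and 2.05 in *poxn > prosRNAi, SypRNAi* tumors, against 1.30 and 1.22 in *poxn > prosRNAi* tumors. *HisRS* (FBgn0027087, X, 18515428 to 18520445), the histidine enzyme, had 166 and 174 CPM in *poxn > prosRNAi, SypRNAi* tumors, against 138 and 124 CPM in *poxn > prosRNAi* tumors, a log2 fold change of 0.37 ± 0.0792 (edgeR adjusted p = 0.0329). *LysRS* had 177 and 186 CPM in *poxn > prosRNAi, SypRNAi* tumors, against 154 and 142 CPM in *poxn > prosRNAi* tumors, a log2 fold change of 0.29 ± 0.0735 (edgeR adjusted p = 0.0484). Neither *HisRS* nor *LysRS* has a counterpart with the suffix -m.

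*SerRS* and *AlaRS* were lower in *poxn > prosRNAi, SypRNAi* tumors. *SerRS* had 116 and 119 CPM in *poxn > prosRNAi, SypRNAi* tumors, against 175 and 150 CPM in *poxn > prosRNAi* tumors, a log2 fold change of -0.46 ± 0.0931 (edgeR adjusted p = 0.0298). *SerRS-m* had 32.0 and 34.8 CPM in *poxn > prosRNAi, SypRNAi* tumors, against 26.9 and 29.8 CPM in *poxn > prosRNAi* tumors (0.24, edgeR adjusted p = 0.106). The ratio of this pair was 4.85 and 4.58 in *poxn > prosRNAi, SypRNAi* tumors, against 8.65 and 6.72 in *poxn > prosRNAi* tumors. *AlaRS* had 123 and 143 CPM in *poxn > prosRNAi, SypRNAi* tumors, against 190 and 172 CPM in *poxn > prosRNAi* tumors, a log2 fold change of -0.44 ± 0.103 (edgeR adjusted p = 0.041). *AlaRS-m* had 23.9 and 23.5 CPM in *poxn > prosRNAi, SypRNAi* tumors, against 27.3 and 28.6 CPM in *poxn > prosRNAi* tumors (-0.24, edgeR adjusted p = 0.0606), and the ratios of the alanine pair overlapped.

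For tryptophan both enzymes were called lower. *TrpRS* had 42.9 and 43.6 CPM in *poxn > prosRNAi, SypRNAi* tumors, against 56.0 and 51.2 CPM in *poxn > prosRNAi* tumors (log2 fold change -0.31, edgeR adjusted p = 0.0387). *TrpRS-m* had 23.7 and 24.4 CPM in *poxn > prosRNAi, SypRNAi* tumors, against 29.3 and 29.8 CPM in *poxn > prosRNAi* tumors (-0.30, edgeR adjusted p = 0.0329). The ratio of the tryptophan pair, 2.66 and 2.63 in *poxn > prosRNAi, SypRNAi* tumors, against 2.82 and 2.53 in *poxn > prosRNAi* tumors, overlapped. For valine the mitochondrial gene alone was called. *ValRS-m* (FBgn0035942, 3L, 8961274 to 8964769) had 24.5 and 20.3 CPM in *poxn > prosRNAi, SypRNAi* tumors, against 30.2 and 30.9 CPM in *poxn > prosRNAi* tumors, a log2 fold change of -0.44 ± 0.106 (edgeR adjusted p = 0.0436). *ValRS* had 110 and 127 CPM in *poxn > prosRNAi, SypRNAi* tumors, against 121 and 109 CPM in *poxn > prosRNAi* tumors (0.05, edgeR adjusted p = 0.761). Over all 14 amino acids the ratio was higher in both *poxn > prosRNAi, SypRNAi* libraries for 7, lower in both for 3 (Glu, Ser and Tyr) and overlapping for 4. With 2 libraries a condition, a random order separates the conditions in a share of 0.333, and *GluProRS* enters 2 of the ratios. These counts were not tested.

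The 11 cytosolic genes that were not called had log2 fold changes of -0.074 to 0.37, of which *AsnRS* had the largest (edgeR adjusted p = 0.0573), with 94.9 and 110 CPM in *poxn > prosRNAi, SypRNAi* tumors, against 83.0 and 75.5 CPM in *poxn > prosRNAi* tumors. The 13 mitochondrial genes not called had values of -0.28 to 0.33. Of the 8 genes of the mammalian complex 1 was called between the tumors (*LysRS*) and of the 10 other cytosolic genes 6. Of all genes tested 23.3% were called, and *LysRS* lay near the threshold (edgeR adjusted p = 0.0484). The grouping was made after the values were seen and was not tested.

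The calls between the tumors depended on both *poxn > prosRNAi* libraries. Those of *SerRS*, *TrpRS*, *TrpRS-m* and *LysRS* also depended on both *poxn > prosRNAi, SypRNAi* libraries. Without *poxn > prosRNAi* replicate 1 the edgeR fit called 235 genes and without replicate 2 it called 6, and in either case 0 of the 33 genes by edgeR's quasi-likelihood test. With all 4 libraries, 5435 of 13703 genes tested had an unadjusted p under 0.05, and DESeq2 called 1996 genes higher and 2062 lower. Of the 33 synthetase genes, 15 had such an unadjusted p and DESeq2 called 10, 4 higher and 6 lower. Their edgeR adjusted p without replicate 1 was 0.0936 for *TyrRS* and 0.131 for *CysRS*. Without *poxn > prosRNAi, SypRNAi* replicate 1, 4 cytosolic genes and 1 mitochondrial gene were called, and without replicate 2, 3 cytosolic genes (2108 genes in all). With a library left out, the log2 fold changes of all 9 called genes kept their sign. They lay between -0.74 and -0.55 for *TyrRS*, 0.39 and 0.64 for *CysRS* and -0.56 and -0.35 for *SerRS*. For *ValRS-m* they lay between -0.59 and -0.32, for *AlaRS* between -0.56 and -0.33 and for *HisRS* between 0.31 and 0.45. The ranges were -0.37 to -0.25 for *TrpRS*, -0.32 to -0.28 for *TrpRS-m* and 0.24 to 0.35 for *LysRS*. The study's methods set an adjusted p of 0.001 for DESeq2, among genes detected in single tumor cells. At that cutoff on the edgeR values over all genes tested, 0 genes of any kind were called between the tumors, the smallest value being 0.00197. The 2 tests and gene sets differ, so this is not the result of the study's own criterion. Scaling by library totals alone moved the median of all genes by 0.13, and 71.8% of the genes called were then higher, against 46.7% with TMM. With it *AlaRS*, *SerRS*, *TrpRS*, *TrpRS-m* and *ValRS-m* were not called, at -0.31, -0.33, -0.18, -0.16 and -0.31, while 4 cytosolic genes were higher and 1 lower and 1 mitochondrial gene was higher.

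**Figure D4:**
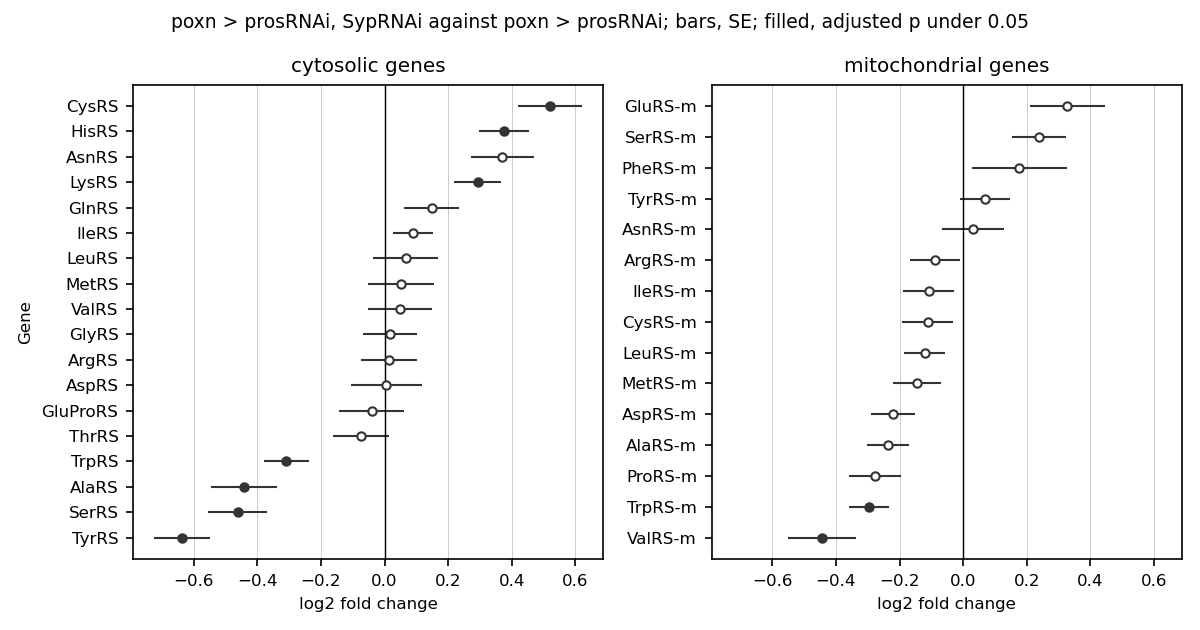
Log2 fold change (x axis) of each cytosolic (left) and mitochondrial (right) gene in *poxn > prosRNAi, SypRNAi* against *poxn > prosRNAi* tumors, in order of size, with SE bars and filled points for an edgeR adjusted p under 0.05. Filled points mark 3 higher and 4 lower cytosolic genes and 2 lower mitochondrial genes, and values run from -0.64 (*TyrRS*) to 0.52 (*CysRS*).

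Of the marker lists, that of muscle had the median farthest from 0 between the tumor types. In *poxn > prosRNAi, SypRNAi* tumors 11 of its 12 genes were higher (median 3.29 on the log2 scale), and the list summed to 1012 to 1791 CPM in *poxn > prosRNAi, SypRNAi* tumors, against 129 to 141 CPM in *poxn > prosRNAi* tumors and 568 to 782 CPM in WT. Of the neuron markers 3 of 8 and of the glia markers 3 of 6 were also higher, of the fat body markers 2 of 7 were higher and 5 lower, and of the NB markers 1 of 6 was higher and 2 lower. Of all genes tested 10.9% were higher and 12.4% lower. The part of these marker changes in the differences of the synthetase genes was not tested.

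The lists below can be set beside all genes tested, of which 39.8% were higher and 36.7% lower in *poxn > prosRNAi, SypRNAi* tumors than in WT (median 0.043), 41.9% higher and 40.7% lower in *poxn > prosRNAi* tumors than in WT (median 0.0084), and 10.9% higher and 12.4% lower between the tumors (median 0.016). Proteins that work with the synthetases but fall outside the symbol rule also stood above WT. The list held the 2 subunits of the cytosolic phenylalanine enzyme (*alpha-PheRS* and *beta-PheRS*), the scaffolds *AIMP1*, *AIMP2* and *AIMP3*, the mitochondrial seryl-synthetase-like gene *Slimp*, and *GatA*, *GatB* and *GatC*, subunits of the amidotransferase that makes glutaminyl-tRNA in mitochondria from a glutamyl-tRNA. All 9 were higher in *poxn > prosRNAi, SypRNAi* tumors than in WT and all 9 in *poxn > prosRNAi* tumors than in WT, with medians of 1.05 and 0.75, against 39.8% and 41.9% of all genes. *alpha-PheRS* had 62.1 and 58.1 CPM in *poxn > prosRNAi, SypRNAi* tumors, 57.3 and 51.4 CPM in *poxn > prosRNAi* tumors and 15.9 and 17.4 CPM in WT. *AIMP1* had 34.0 and 32.0 CPM in *poxn > prosRNAi, SypRNAi* tumors, 29.2 and 26.2 CPM in *poxn > prosRNAi* tumors and 9.16 and 9.68 CPM in WT. The 3 Gat subunits had smaller values against WT, 0.34 to 0.63 in *poxn > prosRNAi, SypRNAi* tumors and 0.26 to 0.54 in *poxn > prosRNAi* tumors. Between the tumors 0 of the 9 were called by edgeR and 0 by DESeq2, with 3 at an unadjusted p under 0.05.

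Charged tRNAs are carried to the ribosome by elongation factors. Of 7 cytosolic elongation factor genes 6 were higher and 1 lower than WT in either tumor type, with medians of 2.05 in *poxn > prosRNAi, SypRNAi* tumors and 2.21 in *poxn > prosRNAi* tumors. Of all genes 39.8% and 41.9% were higher in these comparisons. The lower one was *eEF1alpha2*, a paralog of *eEF1alpha1* that in mammals is used in neurons and muscle, with 113 and 135 CPM in *poxn > prosRNAi, SypRNAi* tumors, 91.2 and 116 CPM in *poxn > prosRNAi* tumors and 571 and 599 CPM in WT. *eEF1alpha1* itself had 5088 and 5019 CPM in *poxn > prosRNAi, SypRNAi* tumors, 5283 and 4871 CPM in *poxn > prosRNAi* tumors and 1099 and 1102 CPM in WT. Between the tumors *eEF2*, the translocase, was the gene called, with 3257 and 3209 CPM in *poxn > prosRNAi, SypRNAi* tumors, against 4185 and 4021 CPM in *poxn > prosRNAi* tumors (log2 fold change -0.34, edgeR adjusted p = 0.0249).

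The factors of mitochondrial translation had smaller medians against WT than the cytosolic elongation factors. Of 8 genes found, 4 were higher and 1 lower than WT in *poxn > prosRNAi, SypRNAi* tumors (median 0.20), and 6 were higher in *poxn > prosRNAi* tumors (median 0.49). Of all genes 39.8% and 41.9% were higher in these comparisons, and 36.7% and 40.7% lower. Between the tumors 2 were lower, against 12.4% of all genes. *mIF3*, an initiation factor, had 8.43 and 8.02 CPM in *poxn > prosRNAi, SypRNAi* tumors, against 20.1 and 19.8 CPM in *poxn > prosRNAi* tumors (log2 fold change -1.27, edgeR adjusted p = 0.00412), with 9.79 and 10.5 CPM in WT. *mEFTs*, the exchange factor of the mitochondrial elongation factor Tu, had 33.9 and 39.9 CPM in *poxn > prosRNAi, SypRNAi* tumors, against 63.5 and 57.8 CPM in *poxn > prosRNAi* tumors (-0.71, edgeR adjusted p = 0.0153). For *mIF3* both *poxn > prosRNAi, SypRNAi* libraries lay below the WT libraries as well.

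Genes that process and modify tRNAs were higher than WT almost throughout, 12 of 13 in *poxn > prosRNAi, SypRNAi* tumors (median 1.36) and 13 of 13 in *poxn > prosRNAi* tumors (median 1.33), against 39.8% and 41.9% of all genes. *Tgt*, which puts queuine into tRNA anticodons, had 38.0 and 36.1 CPM in *poxn > prosRNAi, SypRNAi* tumors, 36.7 and 33.4 CPM in *poxn > prosRNAi* tumors and 6.43 and 7.28 CPM in WT. Between the tumors *Elp2* (0.43), a subunit of the Elongator complex that modifies tRNA wobble uridines, *RNaseZ* (0.34), which trims the 3′ ends of tRNAs, and *Rtca* (0.26), an RNA cyclase, were higher, and *cbc* (-0.51), an RNA kinase related to human CLP1, was lower, where 10.9% and 12.4% of all genes were higher and lower. The values for *Elp2* were 28.2 and 31.1 CPM in *poxn > prosRNAi, SypRNAi* tumors, against 22.8 and 21.1 CPM in *poxn > prosRNAi* tumors.

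Shortage of charged tRNAs is sensed by the kinase GCN2, which acts through the transcription factor ATF4 (*crc* in the fly) on genes of amino acid synthesis and, in mammals, on synthetase genes. The 11 genes listed for this response were called in either direction against WT. Their median log2 fold change was -0.018 in *poxn > prosRNAi, SypRNAi* tumors and -1.05 in *poxn > prosRNAi* tumors, against 0.043 and 0.0084 over all genes. The values ran from -2.70 to 3.06 and from -2.86 to 0.78. In *poxn > prosRNAi, SypRNAi* tumors 4 were higher and 4 lower than WT, and in *poxn > prosRNAi* tumors 5 were higher and 6 lower, where 39.8% and 36.7%, and 41.9% and 40.7%, of all genes were. *Gcn2* and *crc* had log2 fold changes against WT of 0.34 and 0.35 in *poxn > prosRNAi, SypRNAi* tumors and of 0.34 and 0.37 in *poxn > prosRNAi* tumors. Between the tumors 4 were higher and 1 lower, against 10.9% and 12.4% of all genes, with a median of 0.40 against 0.016 over all genes. *Thor*, the fly 4E-BP, a repressor of translation initiation, had 75.5 and 61.7 CPM in *poxn > prosRNAi, SypRNAi* tumors, against 13.1 and 15.0 CPM in *poxn > prosRNAi* tumors (2.29, edgeR adjusted p = 0.00403), with 9.15 and 7.20 CPM in WT. *AsnS*, asparagine synthetase, which makes the amino acid and is not a tRNA enzyme, had 43.2 and 51.0 CPM in *poxn > prosRNAi, SypRNAi* tumors, against 13.2 and 13.2 CPM in *poxn > prosRNAi* tumors (1.83, edgeR adjusted p = 0.00398), with 52.6 and 57.2 CPM in WT. *aay*, a phosphoserine phosphatase of serine synthesis (1.15), and *Nmdmc*, a mitochondrial enzyme of folate metabolism (1.05), were also higher. *PEK*, another kinase upstream of ATF4, was lower (-0.56, edgeR adjusted p = 0.00986).

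**Figure D5:**
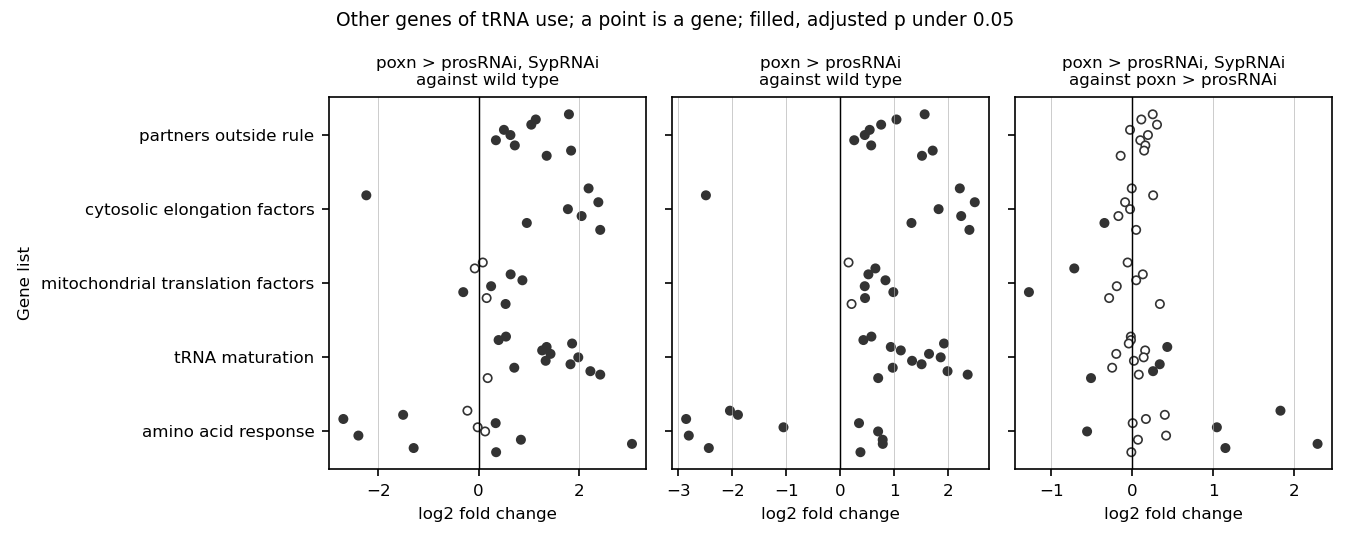
Log2 fold changes (x axis) of 5 lists of genes that work with tRNAs or respond to their charging, in the 3 comparisons, with a point for each gene, filled where the edgeR adjusted p was under 0.05. All 9 partners lie to the right of 0 against WT in either tumor type, the amino acid response genes lie on either side, and between the tumors the points farthest from 0 are *Thor* at 2.29, *AsnS* at 1.83, *mIF3* at -1.27, *aay* at 1.15 and *Nmdmc* at 1.05.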

How the data were processed

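Raw counts per gene were analysed for 6 bulk RNA-seq libraries of rRNA-depleted RNA. The authors mapped paired reads with Subread, kept unique ones and deposited the counts from featureCounts 1.5.0 on exons of FlyBase 6.19, without strand and with reads assigned to every overlapping gene. The deposited table also gives exon lengths, used for CPM per kb. The labels name an older genome build, but the positions of all 33 genes were checked to be those of Release 6. Counts were fitted in edgeR 4.0.16 (R 4.3.3, limma 3.58.1) with TMM scaling, filterByExpr at a minimum of 10 counts, and the quasi-likelihood test, fitted to the 4 libraries compared. A prior count of 2 was used, and p-values were corrected by Benjamini-Hochberg over all genes tested. Fold changes and p-values come from this fit, with a threshold of 0.05. The SE was derived from it, as the absolute log2 fold change divided by the square root of the F statistic of the test. Alternatives were DESeq2 1.42.0 size factors and Wald test, library totals alone, no filter beyond 1 count, a fit to all 6 libraries, a block for the replicate number, and leaving out each library. A threshold of 0.001, which the study set for DESeq2, was also applied to the edgeR values. The steps were tested on simulated counts, and figures drawn with matplotlib 3.10.9. Replicates differed by more than sampling noise (chi-square per degree of freedom 79.2 to 162).

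The genes and lists were chosen with earlier results of these data known. Named in full were the 6 genes with the largest absolute log2 fold change past 0.05 in each comparison, both genes of each amino acid with a call between the tumors, and at most 4 genes of a context list called there. Genes outside this rule (such as *CysRS*, *AsnRS* and the mitochondrial genes against WT, *alpha-PheRS*, *AIMP1*, *Tgt*, *eEF1alpha1* and *eEF1alpha2*) were chosen after their values were seen. Gene lists are given beside the shares of all genes, and those other than the cell markers also beside the medians, with no set test. With 2 libraries a condition, an exact two-sided permutation test of a single gene cannot go below 0.333. Sequences were not analysed here.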

Additional observations from a re-analysis of the deposited data

How the results depend on the processing

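All 18 cytosolic genes were higher than WT in either tumor type under each alternative, except that *TyrRS* was not called in *poxn > prosRNAi, SypRNAi* tumors under library totals alone (17 called) nor at the 0.001 threshold (17 called). At a threshold of 0.001 the calls were 7735 genes and 6 mitochondrial genes for *poxn > prosRNAi* tumors against WT, 5286 genes and 3 mitochondrial genes for *poxn > prosRNAi, SypRNAi* tumors against WT, and 0 genes, 0 cytosolic and 0 mitochondrial, between the tumors. Under library totals alone the medians were 1.15 (cytosolic) and 0.042 (mitochondrial) for *poxn > prosRNAi* tumors against WT, 1.45 and -0.11 for *poxn > prosRNAi, SypRNAi* tumors against WT, and 0.16 and 0.021 between the tumors, where 1 mitochondrial gene was called, and *AlaRS-m* was at -0.093 in *poxn > prosRNAi* tumors against WT. Library totals lack the correction for composition that TMM makes, and the cause was not tested further. DESeq2's size factors gave a mitochondrial median of 0.28 for *poxn > prosRNAi* tumors against WT and a cytosolic median of 1.55 for *poxn > prosRNAi, SypRNAi* tumors against WT, and its Wald test 0.27 and 1.55. Single mitochondrial calls against WT were also lost. For *poxn > prosRNAi* tumors these were *AlaRS-m* under DESeq2's size factors and Wald test, and *ArgRS-m*, *AsnRS-m*, *CysRS-m* and *ValRS-m* under library totals alone. For *poxn > prosRNAi, SypRNAi* tumors these were *ArgRS-m* under DESeq2's size factors, its Wald test, no filter and library totals alone, and *CysRS-m* under the Wald test and library totals alone. The Wald test called 5 mitochondrial genes higher there, with a mitochondrial median of -0.015. With all 6 libraries in one fit 5 mitochondrial genes were called between the tumors, a fit in which the WT libraries enter the estimate of the spread.

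Leaving out each library gave, between the tumors, 6 to 2836 genes, 0 to 4 cytosolic and 0 to 1 mitochondrial genes called, with cytosolic medians of -0.048 to 0.11. Such a fit assumes that the lone library varies like the other condition. For *poxn > prosRNAi* tumors against WT the mitochondrial median was 0.29 to 0.39, and for *poxn > prosRNAi, SypRNAi* tumors against WT the cytosolic median was 1.56 to 1.68. The 9 calls between the tumors all held under DESeq2's Wald test.

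By the labels, same-numbered libraries share only a number. The study's methods say that the 2 samples of each tumor condition were processed in parallel. Whether same-numbered ones were handled together is not given in the sources used here. Differences between replicates 1 and 2 correlated across 14451 genes at 0.33 between the tumor types, -0.24 between *poxn > prosRNAi* tumors and WT and -0.062 between *poxn > prosRNAi, SypRNAi* tumors and WT. With the replicate number as a block, 3466 genes, 5 cytosolic and 2 mitochondrial genes were called between the tumors (*AlaRS* and *LysRS* were not), 11274, 18 and 13 for *poxn > prosRNAi* tumors against WT, and 10353, 18 and 9 for *poxn > prosRNAi, SypRNAi* tumors against WT (*ArgRS-m* and *MetRS-m* were not). A crossed pairing, added after seeing the data, called 11591 genes, 18 cytosolic and 12 mitochondrial, in *poxn > prosRNAi* tumors against WT. The lowest count of these genes was 695, and precision rests on 2 libraries a condition.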
